A study of Mus musculus with 12 samples.

Results

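The 10 genes described here belong to the Notch pathway and to the machinery that divides the presomitic mesoderm into somites. They were the ligand genes Dll1 and Dll3, the receptor gene Notch1, the glycosyltransferase gene Lfng, the effector genes Hes1, Hes7 and Hey1, and the mesodermal transcription factor genes Tbx6, Msgn1 and Mesp2. They were chosen by name and read out by every non-control probe carrying that name, 12 of 41174 probes, among 28082 gene names on the array. Of the 10 genes, 9 passed the filter on dim signal and were tested among 17764 genes, and Hes7 did not pass.

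RNA came from mouse embryonic stem cells of strain 129 and was hybridised to 12 one-colour arrays, 2 for each of 6 groups. The groups were undifferentiated cells, whose titles name the cytokine LIF, embryoid bodies (EB, floating aggregates of differentiating cells) sampled on days 1, 3 and 4, and cells differentiated as a monolayer (ML) sampled on days 1 and 3. The labels name no genetic change and no added agent apart from LIF. The paired arrays of a group are labelled as clones 1 and 2 and the submitters describe separate experiments by different people, so p-values here measure only the spread between such arrays.

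Notch signalling passes between neighbouring cells. A Delta or Jagged ligand on one cell binds a Notch receptor on the next, the receptor is cleaved, and its intracellular domain joins the DNA-binding protein RBPJ in the nucleus to switch on repressor genes of the Hes and Hey families. In the presomitic mesoderm of vertebrate embryos this loop runs as a clock: Hes7 and Lfng oscillate, Tbx6 and Msgn1 set up the tissue, and Mesp2 marks the next segment border.

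Between 52.1% and 63.8% of the spots of an array were well above background, and no spot was saturated. Replicate arrays correlated at 0.971 (ML day 3) to 0.992 (EB day 1). The undifferentiated arrays shared 1 slide and scan day, EB days 1 and 3 shared slide 2, ML days 1 and 3 shared slide 3 of the same scan day, and EB day 4 had slide 4, a scan day and a scanner of its own. Day 3 was therefore set against day 1 within a slide, EB against ML across slides, and comparisons with undifferentiated cells or with EB day 4 cannot be told apart from slide and scan day. The pluripotency factor gene Pou5f1, checked against the stem cell label, averaged 4.66 ± 0.09 on the undifferentiated arrays and 1.94 ± 0.43 on the EB day 4 arrays (SD, n = 2). Levels are log2 signal relative to the 75th percentile of the same array, so 0 is that percentile, and levels of different probes are not set against each other.

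Promoter sequence was taken from RefSeq (build GRCm38.p6), the 250 bases before the annotated start, which 8 of the 10 genes had in the table, in 9 windows. Each window was searched on both strands for the RBPJ core GTGGGAA, the E-box CACGTG and the class C site CACGCG, which Hes and Hey repressors are known to bind, and the T-box core AGGTGT. The windows of Lfng and of the 3 mesodermal factors are shown, none of them crossed by another annotated gene, 5′ to 3′ on the gene's strand, with matches in capitals. They lie at chr5:140607091-140607340 on the plus strand (Lfng), chr7:126781233-126781482 on the plus strand (Tbx6), chr12:11208949-11209198 on the minus strand (Msgn1) and chr7:79810477-79810726 on the plus strand (Mesp2).
Lfng: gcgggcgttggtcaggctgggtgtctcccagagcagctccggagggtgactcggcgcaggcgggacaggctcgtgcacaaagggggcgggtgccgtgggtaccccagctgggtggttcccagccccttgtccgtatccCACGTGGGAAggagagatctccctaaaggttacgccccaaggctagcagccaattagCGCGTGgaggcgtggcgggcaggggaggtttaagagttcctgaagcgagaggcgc
Tbx6: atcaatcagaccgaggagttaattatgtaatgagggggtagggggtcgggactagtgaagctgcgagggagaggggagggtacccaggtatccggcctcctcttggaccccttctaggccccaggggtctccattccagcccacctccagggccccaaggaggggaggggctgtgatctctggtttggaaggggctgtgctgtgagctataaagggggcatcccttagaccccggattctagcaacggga
Msgn1: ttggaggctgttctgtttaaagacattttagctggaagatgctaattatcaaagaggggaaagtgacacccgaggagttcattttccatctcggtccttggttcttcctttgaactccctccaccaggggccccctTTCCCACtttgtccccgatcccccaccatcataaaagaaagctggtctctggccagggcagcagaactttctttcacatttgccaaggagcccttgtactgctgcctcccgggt
Mesp2: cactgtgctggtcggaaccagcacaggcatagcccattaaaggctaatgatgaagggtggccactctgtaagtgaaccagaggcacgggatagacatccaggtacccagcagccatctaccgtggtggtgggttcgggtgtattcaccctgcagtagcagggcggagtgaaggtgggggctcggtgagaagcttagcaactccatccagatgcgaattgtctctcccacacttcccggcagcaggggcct
In the Lfng window the E-box (bases -112 to -107) and the RBPJ core (-109 to -103) overlap, and a class C site, read on the other strand, stands at -55 to -50. The Msgn1 window held an RBPJ core on the other strand at -114 to -108, and the Tbx6 and Mesp2 windows held none of the 4 motifs, nor did those of Dll3 and Notch1. Hes7 had an RBPJ core at -180 to -174 and a class C site at -14 to -9, and 1 of 2 Dll1 windows had a class C site at -68 to -63. The RBPJ core was thus present in 3 of 9 windows, against 5.42% of 32851 promoters of this length, the class C site in 3 (7.62% of all promoters), the E-box in 1 (6.02%) and the T-box core in 0 (11.8%). These are matches of letters and describe no binding.

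The ligand genes were measured by probes on chromosome 17, 15504623 to 15504682 (Dll1), and chromosome 7, 29078763 to 29078822 (Dll3), build mm9, both on the minus strand. Dll3, a divergent Delta protein that acts inside the cell and does not activate Notch on neighbours, stood at 0.14 and 0.01 on the undifferentiated arrays, 1.94 and 1.90 in EB day 1, 2.80 and 3.97 in EB day 3, and 4.03 and 3.00 in EB day 4. The EB day 1 arrays lay above both undifferentiated arrays and below both arrays of day 3, while days 3 and 4 overlapped. In monolayers Dll3 stood at 1.24 and 1.10 at day 1 and at 0.63 and 2.05 at day 3, and these groups overlapped.

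Dll3 rose 3.59-fold in EB day 1 against undifferentiated cells (log2 change 1.84 ± 0.52 SE, limma adjusted p = 0.048). That call was lost when any of the 4 arrays was left out (adjusted p up to 0.186), and under quantile normalization, the authors' values, no filter, the mean of probes and the replicate block. Neither EB day 3 against EB day 1 (1.47 ± 0.52, adjusted p = 0.154) nor ML day 1 against undifferentiated cells (1.10 ± 0.52, adjusted p = 0.167) passed the threshold. The arrays did not overlap in either case, which was also so for 59.5% and 67% of all genes in these comparisons. At day 3, Dll3 was 2.04 ± 0.52 higher in embryoid bodies than in monolayers without passing it (adjusted p = 0.0748, called with normexp background, with a trended prior and without ML day 3 replicate 2).

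Dll1, the activating ligand of the presomitic mesoderm, stood at -0.81 and 0.95 on the undifferentiated arrays, -1.08 and -0.65 in EB day 1, -0.96 and 0.38 in EB day 3, and 0.81 and 0.11 in EB day 4. Every pair of neighbours in this order overlapped. The monolayer arrays read -0.14 and -0.15 at day 1 and -1.54 and -3.41 at day 3, day 3 being lower on both arrays with a wide gap between them. The drop from monolayer day 1 was -2.34 ± 0.72 (adjusted p = 0.0658), outside the threshold, and it passed under the strict filter and under the trended prior. In ML day 3 the raw signal of Dll1 was 204 and 50.8 intensity units.

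Notch1, the receptor, was read by 2 probes that meet end to end on chromosome 2 (26314772 to 26314830, used for the test, and 26314830 to 26314889). The probe used read -0.44 and 0.51 on the undifferentiated arrays, -1.03 and -0.60 in EB day 1, -1.0 and -0.35 in EB day 3, -0.68 and -1.17 in EB day 4, -0.79 and -1.14 in ML day 1, and -1.60 and -1.09 in ML day 3. Each group overlapped with its neighbour in the order of means, with undifferentiated cells at the top and ML day 3 at the bottom. No comparison called Notch1. ML day 1 came nearest, at -1.0 ± 0.38 against undifferentiated cells (adjusted p = 0.096), and it was called when undifferentiated replicate 1 was left out. The second Notch1 probe gave differences of the same sign for both day 1 groups against undifferentiated cells (-0.62 in EB and -0.71 in ML), while for EB day 4 against EB day 3 the probes differed in sign (-0.25 on the probe used and 0.37 on the other).

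Lfng encodes the Fringe glycosyltransferase that modifies Notch and changes its response to ligands. Its probe on chromosome 5, 141091224 to 141091283 (plus strand), read -2.78 and -2.16 in EB day 3, against -4.00 and -3.58 in EB day 1. These groups did not overlap, which was also so for 59.5% of all genes. Lfng rose 2.50-fold over that interval (1.32 ± 0.31, adjusted p = 0.0434). The call was lost with normexp background, quantile normalization, the authors' values, no filter, a replicate block, the compared groups alone (adjusted p = 0.0792) and without either EB day 1 array or without the second EB day 3 array (highest adjusted p = 0.306). The second Lfng probe (141090156 to 141090215) was higher by 0.91 over the same interval, but both EB day 1 arrays were too dim to pass the background flag. In the other groups the first probe read -3.20 and -3.60 in undifferentiated cells, -2.51 and -2.98 in EB day 4, -2.54 and -3.03 in ML day 1, and -2.51 and -2.19 in ML day 3. EB day 1 lay below ML day 1 by 1.01 ± 0.31 without passing the threshold (adjusted p = 0.337), and ML day 3 was 0.44 ± 0.31 above ML day 1 (adjusted p = 0.372).

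**Figure D1:**
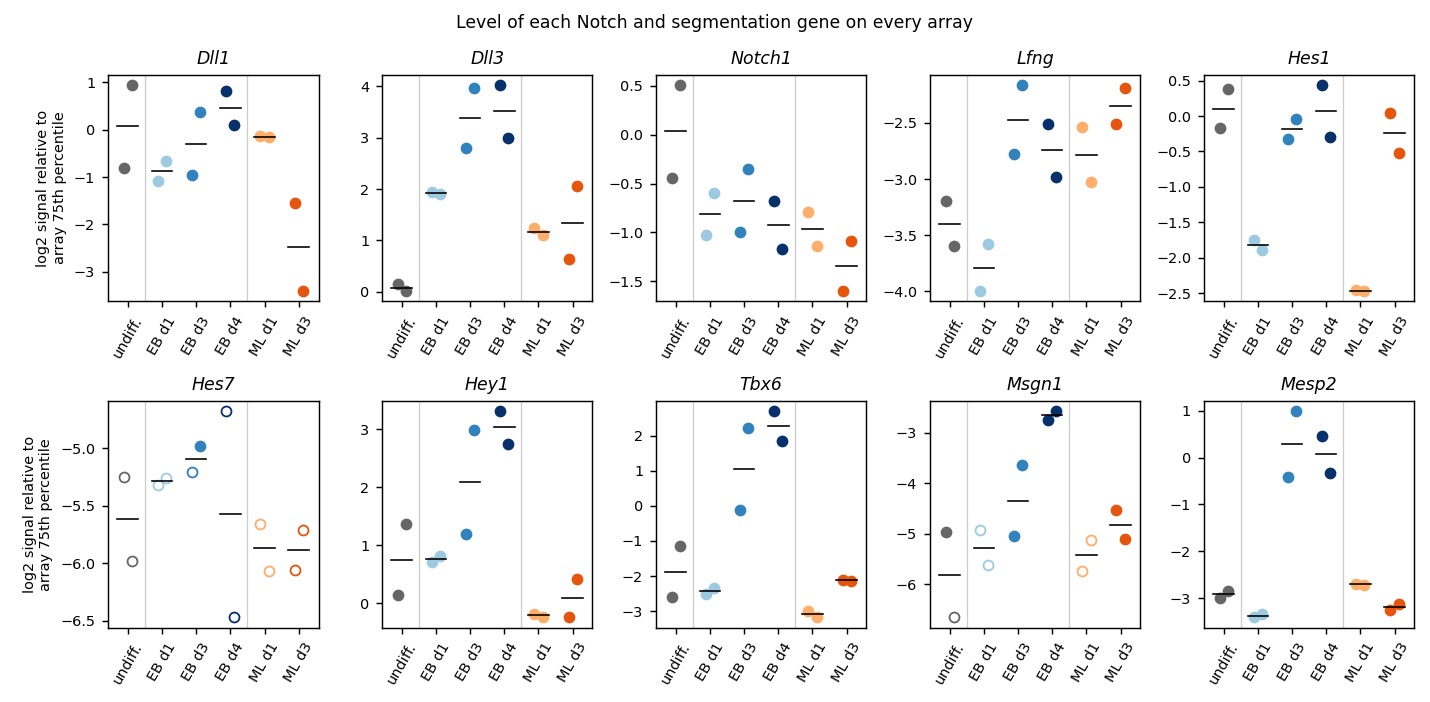
Log2 signal relative to the array's 75th percentile (y axis) of each of the 10 genes on every array, by group (x axis, undifferentiated cells, then embryoid bodies by day, then monolayers by day). Each point is an array, open where it was not well above background, and bars are group means. Tbx6 and Mesp2 are high in EB days 3 and 4 alone, whereas Hes1 is low in EB day 1 and ML day 1 alone.

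Among the effector genes, Hes1 moved in both culture formats. Hes1 encodes a basic helix-loop-helix repressor that is a direct Notch target and also responds to other signals. Its probe and that of Hes7 are printed because Hes1 was called in both formats and Hes7 was above background on a single array. Hes1 lies on chromosome 16, 30065983 to 30066278, and Hes7 on chromosome 11, 68935657 to 68935716 (both plus strand, mm9).
Hes1 probe: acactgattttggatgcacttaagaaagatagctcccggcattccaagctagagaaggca
Hes7 probe: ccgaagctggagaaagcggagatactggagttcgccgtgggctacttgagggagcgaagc
The coordinates of the Hes1 probe span 296 bases for a sequence of 60, so it is not a single run of the genome, and the Hes7 probe spans 60. Their GC contents were 45% (Hes1) and 60% (Hes7).

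Hes1 stood at -0.17 and 0.38 on the undifferentiated arrays, -1.75 and -1.89 in EB day 1, -0.32 and -0.04 in EB day 3, and 0.44 and -0.30 in EB day 4. In monolayers it stood at -2.46 and -2.47 at day 1 and at 0.04 and -0.52 at day 3. Both day 1 groups lay below every other array, and ML day 1 lay below EB day 1, while the other 4 groups overlapped with their neighbours.

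In EB day 1 Hes1 fell 3.81-fold against undifferentiated cells (-1.93 ± 0.31, adjusted p = 0.00925), a call lost without EB day 1 replicate 1 or 2 (adjusted p up to 0.0618). In ML day 1 it fell 5.94-fold against the same undifferentiated arrays (-2.57 ± 0.31, adjusted p = 0.00353) and kept its call under every alternative run. These comparisons share the undifferentiated arrays. On those arrays, 9 measured feeder fibroblast markers averaged 0.10 to 1.44. They averaged -1.36 to -0.57 in EB day 1 and -0.86 to -0.27 in ML day 1. Of these, 5 of 9 were called lower in EB day 1 (5.38% of all genes) and 2 of 9 in ML day 1 (6.42%). Each called marker lost its call when some single array was left out. The part of these markers in the Hes1 and Dll3 changes was not tested.

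Between days 1 and 3, Hes1 rose 4.67-fold in monolayers (2.22 ± 0.31, adjusted p = 0.00362) and kept this call under every alternative run. In each format the day 1 arrays are those of the fall above, so the fall and the rise are not separate results. The same interval in embryoid bodies gave 3.12-fold (1.64 ± 0.31, adjusted p = 0.0211), lost without either EB day 1 array or without the second EB day 3 array (highest adjusted p = 0.162). The changes in the 2 formats differed by -0.58 ± 0.44, and that difference was not called (adjusted p = 0.761). At day 3 Hes1 differed between embryoid bodies and monolayers by 0.06 ± 0.31 (adjusted p = 0.956).

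Hes7, the clock repressor of the presomitic mesoderm, was well above background on 1 of 12 arrays, EB day 3 replicate 2, at -4.98. The other 11 arrays read -6.47 to -4.68, so Hes7 has only a bound in 5 of 6 groups and no fold is given.

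Hey1 encodes a repressor of the Hes-related family that acts downstream of Notch and is expressed in somites and vessels. It read 0.15 and 1.36 on the undifferentiated arrays, 0.71 and 0.81 in EB day 1, 1.19 and 2.98 in EB day 3, 3.31 and 2.75 in EB day 4, -0.18 and -0.23 in ML day 1, and -0.24 and 0.42 in ML day 3 (chromosome 3, 8663432 to 8663491). Both arrays of EB days 3 and 4 exceeded both arrays of EB day 1, and EB day 3 replicate 1 lay 1.79 below replicate 2. EB days 1 and 3 did not overlap for 59.5% of all genes. The rise at EB day 3 against EB day 1 was not called (1.32 ± 0.57, adjusted p = 0.235), and it was called without EB day 3 replicate 1. The same array decided the comparison with ML day 3, which was 1.99 ± 0.57 (adjusted p = 0.105) and was called without it. Hey1 is also an endothelial gene, so 12 endothelial and blood markers were read beside it: they averaged -2.20 to -2.17 in EB day 3, against -2.65 to -2.36 in EB day 1, with 1 higher and 1 lower of 12. The one that rose was Flt1, a VEGF receptor gene (3.72 ± 0.30, adjusted p = 0.00123), at 3.49 and 3.81 in EB day 3, against 0.13 and -0.28 in EB day 1. Kdr, the main VEGF receptor gene, read 0.40 and 3.20 in EB day 3, against -1.53 and -1.02 in EB day 1, and was not called (3.07 ± 0.96, adjusted p = 0.108). The receptor gene Tek was the one that fell, and it and Tie1 were not well above background in EB day 3. The part of these markers in the Hey1 level was not tested.

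Tbx6 encodes the T-box factor of the presomitic mesoderm, needed there in place of a neural fate, and a known activator of Dll1 and Mesp2 in the mouse. Its probe on chromosome 7, 133928999 to 133929058, read -0.11 and 2.21 in EB day 3, against -2.50 and -2.33 in EB day 1. Each EB day 3 array lay above both day 1 arrays, by sizes that differed widely. Tbx6 rose 11-fold (3.46 ± 0.69, adjusted p = 0.0248). Without EB day 3 replicate 2 the change was 2.30 and without EB day 3 replicate 1 it was 4.62, and the call was lost without either EB day 1 array, without the second EB day 3 array (highest adjusted p = 0.14) and with the 2 groups alone (adjusted p = 0.0799).

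In EB day 4 Tbx6 read 2.70 and 1.85, overlapping with EB day 3, and the difference of 1.23 ± 0.69 was not called (adjusted p = 0.268) except without EB day 3 replicate 2, when it was 2.39. Undifferentiated cells read -2.61 and -1.15, ML day 1 -3.00 and -3.18, and ML day 3 -2.11 and -2.13. Between monolayer days the change was 0.97 ± 0.69 (adjusted p = 0.372). Both day 3 arrays lay above both day 1 arrays, and the arrays of 58% of all genes did not overlap between these groups either. EB day 3 exceeded ML day 3 by 9.01-fold (3.17 ± 0.69, adjusted p = 0.0424), a call lost under quantile normalization, the authors' values, no filter, the groups alone (adjusted p = 0.221) and without EB day 3 replicate 2 or either ML day 3 array (adjusted p up to 0.174). Leaving out EB day 3 replicate 1 or 2 moved that difference to 4.33 or 2.01.

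Mesp2 encodes the basic helix-loop-helix factor that fixes the segment border and the rostral identity within a segment. Its probe lies on chromosome 7, 86957849 to 86957908. It read -0.42 and 0.99 in EB day 3, against -3.41 and -3.33 in EB day 1. The raw signal was 445 and 1070 intensity units in EB day 3, against 46.8 and 58.3 in EB day 1. Mesp2 rose 12.6-fold (3.66 ± 0.41, adjusted p = 0.00328) and kept its call under every alternative run, including the 2 groups alone (adjusted p = 0.0416). Leaving out EB day 3 replicate 2 gave 2.95 and leaving out replicate 1 gave 4.36.

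In EB day 4 Mesp2 read 0.46 and -0.32, within the range of EB day 3 (-0.21 ± 0.41, adjusted p = 0.768). Undifferentiated cells read -2.99 and -2.85, ML day 1 -2.69 and -2.71, and ML day 3 -3.26 and -3.12. Both embryoid body groups of days 3 and 4 stood above every array of the other 4 groups, the nearest group mean, that of ML day 1, being 2.77 below EB day 4. Monolayers thus gave -0.49 ± 0.41 between days (adjusted p = 0.456). At day 3 Mesp2 was 11.1-fold higher in embryoid bodies than in monolayers (3.47 ± 0.41, adjusted p = 0.00456), a call lost when those 2 groups were fitted alone (adjusted p = 0.12). Without EB day 3 replicate 2 that difference was 2.76 and without replicate 1 it was 4.17.

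Msgn1, the basic helix-loop-helix gene of early presomitic mesoderm, was well above background on 7 of 12 arrays (chromosome 12, 11215431 to 11215490). It read -4.96 and -6.66 on the undifferentiated arrays, -4.93 and -5.63 in EB day 1, -5.05 and -3.64 in EB day 3, -2.74 and -2.57 in EB day 4, -5.74 and -5.12 in ML day 1, and -4.53 and -5.11 in ML day 3. The EB day 4 arrays lay above all others. EB day 4 exceeded EB day 3 by 1.69 ± 0.60 without passing the threshold (adjusted p = 0.0965), and passed it with normexp background at 0.92. EB day 3 against EB day 1 was not called (adjusted p = 0.44): EB day 3 replicate 1 lay below EB day 1 replicate 1, and both day 1 arrays were too dim to pass the background flag. In whole cultures such as these, more cells of a type and more RNA per cell cannot be told apart.

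**Figure D2:**
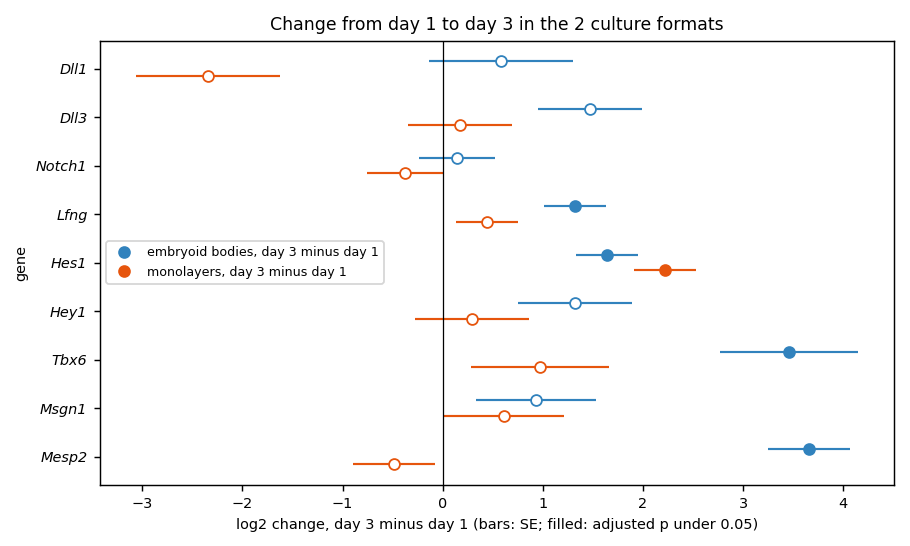
Log2 change of the 9 tested genes (y axis, by role) at day 3 against day 1 (x axis, bars are SE), in embryoid bodies and in monolayers, filled where limma called the gene. Mesp2, Tbx6, Hes1 and Lfng are filled for embryoid bodies and Hes1 alone for monolayers, and Mesp2 lies at 3.66 in the first and -0.49 in the second.

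Counted together, 4 of the 9 tested genes were called in EB day 3 against EB day 1, all higher (Lfng, Hes1, Tbx6 and Mesp2), where limma called 5.42% of all genes and 3.08% higher. Their median log2 change was 1.32, against -0.08 over all genes. In monolayers 1 of 9 was called at day 3 against day 1 (Hes1, higher), beside 12.4% of all genes and 5.77% higher, with medians of 0.29 for the 9 genes and -0.14 for all. The share in monolayers was thus near that of all genes.

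The change in embryoid bodies was set against that in monolayers directly. Mesp2 was the 1 gene of 9 called (0.242% of all genes were, 0.152% higher), with changes that differed by 4.14 ± 0.59 (adjusted p = 0.0286). The call was lost with no filter, a replicate block, the 4 groups alone (adjusted p = 0.0721) and without any of 6 of the 8 arrays (adjusted p up to 0.144), and it held without EB day 3 replicate 1 or ML day 3 replicate 2. Its size ran from 3.44 without EB day 3 replicate 2 to 4.85 without EB day 3 replicate 1. Differences of 2.91 ± 1.02 for Dll1 (adjusted p = 0.357) and 2.49 ± 0.98 for Tbx6 (adjusted p = 0.418) were not called. Culture format and slide cannot be told apart in the EB against ML comparisons at a single day. In the difference of changes a constant shift of a slide cancels, and any other slide effect cannot be told apart from format.

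At a single day, 2 of 9 genes (Tbx6 and Mesp2) were higher in embryoid bodies at day 3 than in monolayers at day 3, where 3.29% of all genes were called and 1.6% were called higher. None of 9 was called in EB day 1 against ML day 1, where limma called 0.0676% of all genes (12) and 1647 had an unadjusted p under 0.05. Among the 9, Lfng had an unadjusted p under 0.05 there. Against undifferentiated cells, 2 of 9 were called in EB day 1 (Dll3 higher and Hes1 lower, beside 13.3% of all genes, 7.97% higher and 5.38% lower) and 1 of 9 in ML day 1 (Hes1 lower, beside 18% of all genes, 6.42% lower). EB day 4 against EB day 3 called 0 of 9 with limma, beside 12.6% of all genes. Msgn1 alone of the 9 had an unadjusted p under 0.05 there, beside 29.9% of all genes.

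The paired EB day 3 arrays differed in 1 direction for all these genes. Replicate 2 exceeded replicate 1 in 9 of 9, where 45.1% of all tested genes did, by 2.32 for Tbx6, 1.79 for Hey1, 1.41 for Msgn1 and Mesp2, 1.34 for Dll1, 1.18 for Dll3, 0.65 for Notch1, 0.61 for Lfng and 0.28 for Hes1. The median gap without sign was 1.34 for the 9 genes, against 0.26 for all genes on these arrays. The mesoderm genes Mesp1 (2.89 and 4.96 on replicates 1 and 2), Foxc2 (-4.20 and -1.03) and Aldh1a2 (-3.66 and -2.55) were also higher on replicate 2. Other listed genes went the other way. The Notch target Nrarp was lower on replicate 2 (-0.05 and -0.58), as was the somite gene Tcf15. The change of Tcf15 against EB day 1 was -2.95 without replicate 1 and -2.06 without replicate 2. The streak gene T read 2.00 and 2.20, and Sox2 was lower on replicate 2 (2.65 and 1.56). In EB day 4 replicate 1 was the higher in 8 of 9 genes (48.6% of all genes), with Msgn1 the exception by 0.17. ML day 1 also had 8 of 9 higher on replicate 1 (47% of all genes), at a median gap of 0.13, below the 0.21 of all genes, so a one-sided count also occurred where gaps were small. The undifferentiated arrays had a median gap of 0.95 for the 9 genes, against 0.35 for all, with 6 of 9 higher on replicate 2. In EB day 1, where both arrays agreed closely, the median gap of the 9 genes was 0.17, against 0.21 for all genes.

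**Figure D3:**
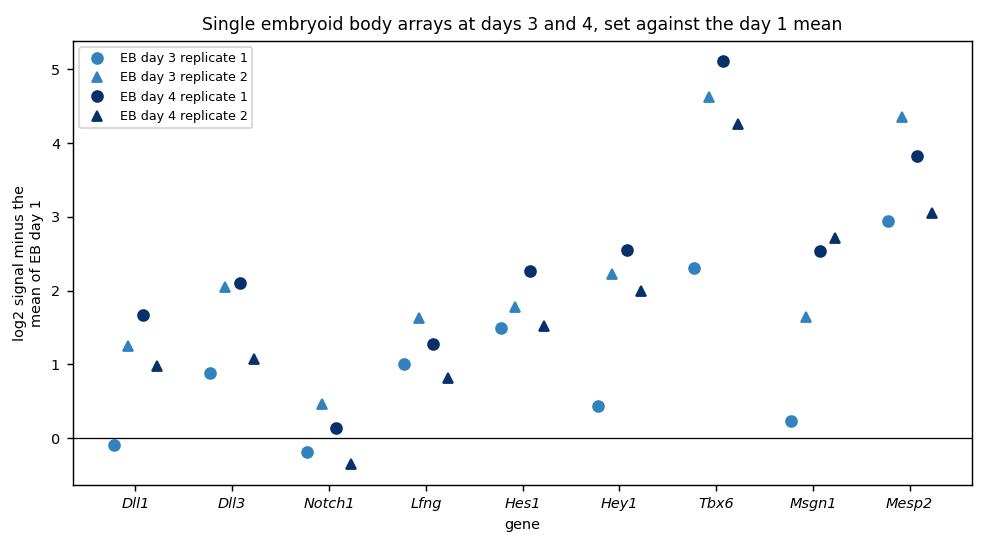
Log2 signal of each of the 9 tested genes (x axis) on the single EB day 3 and day 4 arrays minus the EB day 1 mean (y axis). Circles are replicate 1 and triangles replicate 2: EB day 3 replicate 1 lies below replicate 2 for every gene, by 2.32 for Tbx6 and 0.28 for Hes1.

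Across the 12 arrays the levels of these genes ran together to different degrees, given as a description since the arrays share groups, slides and scaling. Pearson's r was 0.96 between Tbx6 and Hey1, 0.93 between Tbx6 and Mesp2, 0.84 between Dll3 and Mesp2, and 0.77 between Msgn1 and Tbx6. Notch1 and Msgn1 had an r of -0.38. Among 14545 genes the closest profile was that of Col23a1 for Tbx6 (0.99), Pilra for Mesp2 (0.982), Dnajc12 for Dll3 (0.977), Golm1 for Hey1 (0.969), Bcl6 for Hes1 (0.959), Tcp11 for Notch1 (0.952), Gpc4 for Lfng (0.871) and Gdap10 for Dll1 (0.868). Tbx6 itself was the next closest to Hey1 (0.964).

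Other Notch pathway genes were read from lists, to be set beside the 5.42% of all genes called in EB day 3 against EB day 1 and their median of -0.08. In that comparison 0 of 8 other receptors and ligands were called (median 0.32). Of 19 genes for ligand and receptor processing, 1 rose and 0 fell: Aph1b, a subunit of the gamma-secretase that releases the Notch intracellular domain (2.12 ± 0.33, adjusted p = 0.011), a share like that of all genes. Of 21 measured nuclear effectors and targets, 2 rose and 1 fell (median -0.43). Those higher were Nrarp, a Notch target that feeds back on the pathway (2.09 ± 0.37, adjusted p = 0.0166), and Gata3 (adjusted p = 0.0117), which read -1.76 and 0.46 in EB day 3 and was too dim to pass the background flag in EB day 1, and Kat2b, a histone acetyltransferase gene, was lower (-2.05 ± 0.25, adjusted p = 0.00457). Hes5, another Notch target of the Hes family, differed by -0.82 ± 0.81 (adjusted p = 0.634). The calls of Aph1b and Gata3 were lost without either EB day 1 array or EB day 3 replicate 2, and that of Nrarp without any of the 4 arrays, whereas Kat2b kept its call (adjusted p up to 0.0489).

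In monolayers over the same days, where 12.4% of all genes were called, Notch3 was the 1 higher of 8 receptors and ligands (1.10 ± 0.29, adjusted p = 0.0395), and Aph1b (2.16 ± 0.33, adjusted p = 0.00533) and Psen2, a presenilin of gamma-secretase, were the 2 higher of 19 processing genes. Of 21 nuclear genes, 1 rose, Nrarp (1.37 ± 0.37, adjusted p = 0.0437), and 3 fell. The 3 were Hes3 (at least 5.16-fold lower, adjusted p = 0.00102), Kat2b (-1.88 ± 0.25, adjusted p = 0.00307) and Rbpj, the DNA-binding partner of Notch (-1.14 ± 0.24, adjusted p = 0.0175). Hes3 and Kat2b kept their calls with any array left out. Those of Notch3 and Nrarp were lost without any of the 4 arrays (adjusted p up to 0.266), those of Psen2 and Rbpj without either ML day 1 array or ML day 3 replicate 1, and that of Aph1b without ML day 1 replicate 2. For Aph1b the changes in the 2 formats differed by -0.04 ± 0.47 and for Nrarp by 0.72 ± 0.53, neither called (adjusted p = 0.992 and adjusted p = 0.749). At day 3 the ligand gene Jag1 was higher in embryoid bodies than in monolayers (1.44 ± 0.24, adjusted p = 0.0161), 1 of 8 receptors and ligands, a call lost without EB day 3 replicate 2 or ML day 3 replicate 1 (adjusted p up to 0.115).

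Further segmentation genes split. Of 12 measured somite genes beyond those above, 3 rose and 1 fell in EB day 3 against EB day 1 (median 0.77). Mesp1, the paralogue and genomic neighbour of Mesp2, rose by 8.64 ± 0.68 (adjusted p = 0.00118). It was well above background on 1 of the EB day 1 arrays, at a mean level of -4.71. Cer1 rose by 6.07 ± 0.58 (adjusted p = 0.00205), from 5.05 to 7.08 without EB day 1 replicate 2 or 1, and kept its call. Foxc1, a forkhead gene of paraxial mesoderm, rose (2.75 ± 0.57, adjusted p = 0.0285) and Tcf15, the paraxis gene of somites, fell (-2.51 ± 0.60, adjusted p = 0.0449). Foxc1 ran from 1.92 without EB day 3 replicate 2 to 3.58 without EB day 3 replicate 1, and Mesp1 from 7.6 to 9.68 without the same arrays. Mesp1 kept its call, whereas Foxc1 lost it without the second EB day 3 array or either EB day 1 array (highest adjusted p = 0.19) and Tcf15 without any of the 4 (adjusted p up to 0.299). In monolayers 2 of the 12 somite genes rose and 1 fell (median -0.2), beside 12.4% of all genes called. Mesp1 (3.91 ± 0.68, adjusted p = 0.00827) and Cer1 (at least 4.65-fold, adjusted p = 0.00345) rose there too. Tcf15 fell (-3.02 ± 0.60, adjusted p = 0.0138). Without single arrays Mesp1 ran from 3.26 to 4.57 and Tcf15 from -3.87 to -2.16. In monolayers Mesp1 lost its call without ML day 1 replicate 1 or ML day 3 replicate 1. Tcf15 lost it without ML day 1 replicate 2 or ML day 3 replicate 1, and Cer1 kept its call. In embryoid bodies over these days, 12 of 19 measured presomitic Wnt and FGF genes rose and 0 fell (median 2.87). Among them was Cyp26a1, which degrades retinoic acid (5.67 ± 0.68, adjusted p = 0.00389, from 4.65 to 6.69 without EB day 1 replicate 2 or 1). In monolayers 6 of these 19 rose and 0 fell (median 1.05), and at day 3 itself 6 of 19 were higher in embryoid bodies than in monolayers (median 1.34). Primitive streak markers, which precede the presomitic mesoderm, rose in 9 of 9 in EB day 3 and in 8 of 9 in ML day 3, each against its day 1. This list shares members with that of the presomitic Wnt and FGF genes, Evx1 among them, so their counts are not separate. The streak markers averaged 2.91 to 3.16 in EB day 3 and 0.51 to 0.63 in ML day 3. Their part in the Tbx6 and Mesp2 levels was not tested. Neural progenitor markers averaged -3.24 to -2.65 in EB day 3, against -2.31 to -2.12 in EB day 1, with 3 of 8 lower.

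**Figure D4:**
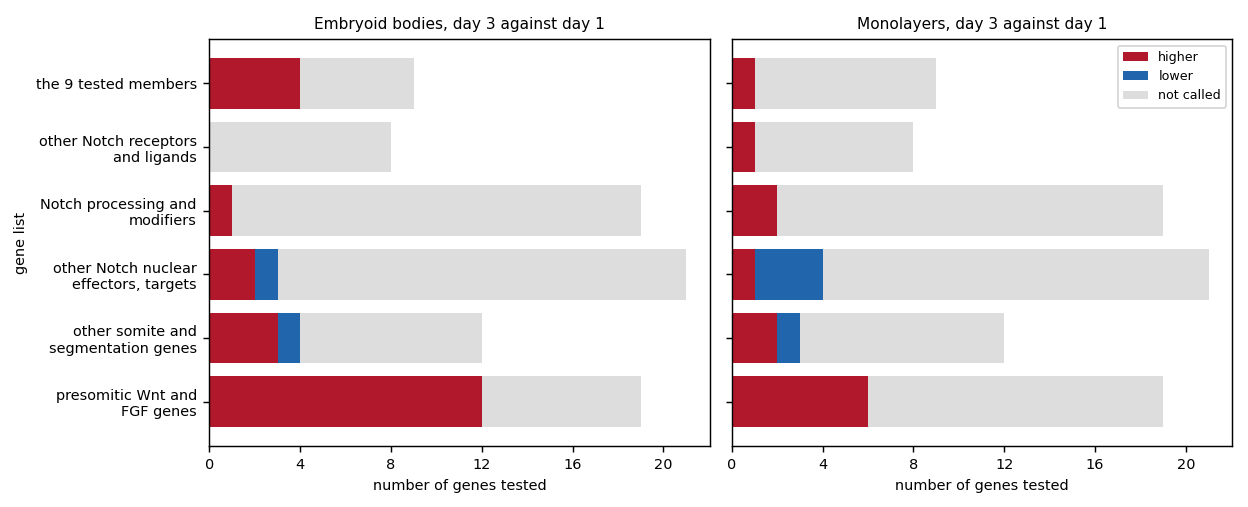
Number of tested genes (x axis) that were higher, lower or not called at day 3 against day 1 in each list (y axis), in embryoid bodies and in monolayers. Among presomitic Wnt and FGF genes 12 of 19 are higher in embryoid bodies and 6 of 19 in monolayers, whereas most Notch pathway genes were not called in either.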

How the data were processed

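RNA from 12 samples of mouse embryonic stem cells was hybridised to Agilent whole mouse genome arrays, 1 sample per array. Per the file headers, the deposited scanner files hold spot intensity, background-subtracted and detrended by Agilent Feature Extraction (version 10.5.1.1 on the undifferentiated arrays, 10.7.3.1 on those of EB days 1 and 3 and of both ML groups, 10.7.1.1 on those of EB day 4, whereas the submitters' processing notes give 9.5.1.1). The deposited flags for background, outliers and saturation are the other kind of value used, per the file headers. In the values that the authors deposited as a matrix, the intensity had been equalised between arrays (median 36.6 in every column). These served as an alternative only.

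Values were log2 of the processed signal less the 75th percentile of that array's 43379 non-control spots, leaving out outlier spots (51 to 172 per array). Spots of a probe were averaged, and 32 probes were dropped because some array gave them no usable spot. Probes had to be well above background on both arrays of at least 1 group (26176 kept), and each gene took its probe with the highest mean. Probe positions are those of the files (mm9). RefSeq accessions named 24844 probes, shared names 4198, and the remaining 12132 kept the name in the files. For dim genes precision is limited by signal over background, and for all genes by the number of arrays.

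Limma 3.58.1 in R 4.3.3 (with data.table at version 1.17.8) fitted 6 group means to 12 arrays (residual df 6, prior df 3.19, prior SD 0.28), and 8 comparisons were tested. Calls are at an adjusted p (Benjamini-Hochberg over all 17764 genes) below 0.05. Where a group was not well above background, a fold is a bound against the lowest signal well above background. The genes, the 10 lists and the tests were chosen with earlier results of these data known; all 10 genes are described, and list genes are named among the called members with the largest changes, plus a few chosen after their values were seen. Promoter windows and motifs were read in Python 3.11.15 (pandas 2.3.3) and figures drawn with matplotlib 3.10.9. Alternatives were leaving out each array, quantile normalization, normexp background correction with an offset of 50, the authors' own values, a trended prior, fitting only the groups compared, a replicate block, averaging the probes of a gene, and either no filter or a strict one that asks for signal well above background on every array.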

Additional observations from a re-analysis of the deposited data

Results flagged for a closer look

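The change of Mesp2 between days 1 and 3 differed between the culture formats by a test of the difference itself. The difference was 4.14 (log2, embryoid body change minus monolayer change, ± 0.59 SE, limma adjusted p = 0.0286). The changes were 3.66 in embryoid bodies and -0.49 in monolayers (not called), from 2 arrays a group. The call of the difference was lost in 9 of 17 alternative runs. Among them were no filter, a replicate block, the groups alone (adjusted p = 0.0721) and most fits without a single array. Each format had a slide of its own. A constant shift of a slide cancels in this difference, and any other slide effect cannot be told apart from format.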

How the results depend on the processing

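No change of a tested gene reversed where it was called. Of the genes' log2 changes under settings other than leaving out an array, 609 kept their sign and side of the threshold, 6 changed sign without being called in either fit, 20 lost a call and 5 gained one. With 1 array left out these counts were 266, 29, 24 and 5. The number of the 9 genes called in EB day 1 against undifferentiated cells was 2, and 1 under quantile normalization, the authors' values, no filter, the mean of probes and the replicate block, each without Dll3. In EB day 3 against EB day 1 it was 4, 3 under normexp, quantile normalization, the authors' values, no filter and the replicate block (each without Lfng), and 2 with the groups alone. ML day 3 against ML day 1 had 1, and 2 under the strict filter and the trended prior (adding Dll1, lower). EB day 4 against EB day 3 had 0, and 1 with normexp (Msgn1). EB day 3 against ML day 3 had 2, 3 with normexp and the trended prior (adding Dll3), 1 under quantile normalization, the authors' values and no filter, and 0 with the groups alone. The difference between formats had 1, and 0 under no filter, the replicate block and the groups alone. With 1 array left out, the counts were 0 to 1 for EB day 1 and 1 to 2 for ML day 1 (both against undifferentiated cells), 1 to 5 for EB day 3 against EB day 1, 1 to 1 for ML day 3 against ML day 1, 0 to 1 for EB day 4 against EB day 3, 0 to 0 for EB day 1 against ML day 1, 1 to 3 for EB day 3 against ML day 3 and 0 to 1 for the difference between formats. Fewer samples enter the fits of groups alone and of 1 array left out; for the other settings the cause was not tested.

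Clone differences of 2 groups correlated at -0.154 to 0.227 across genes (15 pairs of groups), and the main fit did not pair samples by clone number. A range of correlations is no test of a shared clone effect, so such an effect was not tested. With the replicate block the 9 genes had 1, 1, 3, 1, 0, 0, 2 and 0 calls in the 8 comparisons, in the order EB day 1 and ML day 1 against undifferentiated cells, EB and ML day 3 against day 1, EB day 4 against EB day 3, EB against ML at days 1 and 3, and the difference between formats.

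Calls over all genes in those 8 comparisons numbered 2371, 3196, 962, 2206, 2246, 12, 585 and 43, and with the groups alone 728, 277, 660, 668, 239, 3, 0 and 9. Leaving out 1 array moved them to 204 to 2571, 292 to 3477, 104 to 996, 379 to 4765, 338 to 1613, 1 to 5, 111 to 2475 and 0 to 298, so the shares of all genes set beside the 9 genes move with single arrays. No filter gave 569 for EB day 3 against EB day 1, 7619 for EB day 4 against EB day 3, 1 for EB against ML at day 1, 375 at day 3 and 6 for the difference between formats. The strict filter gave 637 for EB day 3 against EB day 1, 0 for EB against ML at day 1 and 26 for the difference between formats. At day 1, EB against ML had 23 with the mean of probes, 20 with the trended prior and 5 with the replicate block. Of the calls in EB day 4 against EB day 3, 30.5% were higher, and 59.0% with normexp, where the median of all genes was 0.11 instead of -0.09. In ML day 1 against undifferentiated cells 64.3% were higher, and 54.1% after quantile normalization. In EB day 1 against ML day 1, 8.3% of 12 were higher, and 31.2% of 16 with normexp. The all-gene median of ML day 3 against ML day 1 was -0.14, and -0.03 after quantile normalization. Signal over background limits Msgn1 and Hes7.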

Other observations

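EB day 4 was compared with EB day 3, on another slide, scan day and scanner, for Notch and somite genes outside the 10, with 12.6% of all genes called. The ligand gene Jag2 fell (-1.90 ± 0.36, limma adjusted p = 0.0138), 1 of 8 receptors and ligands. Of 21 nuclear effectors and targets, 2 rose and 1 fell, with Hey2, a relative of Hey1 known from the heart and vessels, higher (3.27 ± 0.72, adjusted p = 0.0229). Aldh1a2, which makes retinoic acid in somites, was the 1 higher of 12 somite genes (3.41 ± 0.36, adjusted p = 0.00208), and kept its call with any array left out. Jag2 lost its call without EB day 3 replicate 1 or either EB day 4 array, and Hey2 without EB day 3 replicate 1, when it was 2.23, or EB day 4 replicate 2, while without EB day 3 replicate 2 it was 4.30. These counts lie near the share of all genes. The fibroblast and mesenchyme markers Twist2 and Prrx1 were also higher, 2 of 9 such markers, both calls lost without single arrays (adjusted p up to 0.206), and their part in these changes was not tested.

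Against undifferentiated cells, the non-canonical ligand gene Dlk1 was lower in EB day 1 (-2.69 ± 0.39, adjusted p = 0.00678) and in ML day 1 (-2.54 ± 0.39), comparisons that share the undifferentiated arrays. It lost the call without either EB day 1 array (adjusted p up to 0.051) and without ML day 1 replicate 1 (adjusted p up to 0.0558). Hes5 was lower in ML day 1 (-3.20 ± 0.81, adjusted p = 0.029) and Hes3 higher (2.07 ± 0.33, adjusted p = 0.00856). Both were among 21 nuclear effectors and targets of which 3 rose and 3 fell, where 18% of all genes were called. Hes3 was well above background on 1 of the undifferentiated arrays, at a mean level of -5.15, so its fold is against a dim reference. Hes5 lost its call without any of the 4 arrays (adjusted p up to 0.153) and Hes3 without either ML day 1 array (adjusted p up to 0.0571). Feeder fibroblast markers moved in the same comparisons, 5 of 9 lower in EB day 1 and 2 of 9 in ML day 1. Each of these marker calls was lost when some single array was left out. The part of the markers in the changes of Dlk1, Hes5 and Hes3 was not tested. Slide and scan day cannot be told apart from the groups here either.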
